A study of Mus musculus with 10 samples.

Results

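The retinal pigment epithelium (RPE) moves ions, lactate and glucose between the photoreceptors and the blood of the choroid, and 9 genes of that traffic were followed here in the mouse RPE/choroid complex. They were chosen by symbol from the deposited count table: Best1, Kcnj13, Clcn2, Atp1b1 and Slc4a2 for ions, Slc16a8, Slc16a1 and Bsg for lactate, and Slc2a1 for glucose. All 9 were found among 55487 distinct genes of the table, and all 9 passed the filter on low counts that left 20684 genes for testing. The 5 ADQ samples came from iDTR Adiponectin-Cre mice and the 5 control samples from iDTR mice without the Cre. Both groups received diphtheria toxin intraperitoneally; the series description gives daily injection over 7 weeks for the mice with Cre, and age is not given in the sources used here. iDTR animals carry a diphtheria toxin receptor in the ROSA26 locus that is switched on by Cre, here driven by adiponectin regulatory sequence and so meant for fat cells, not for the RPE. The labels do not say whether samples are animals of their own, and the p-values then speak for differences between these 10 samples, which could be technical.

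The RPE is a polarised monolayer, and transport across it depends on proteins being placed on opposite faces. The sodium pump and an inward rectifier potassium channel sit on the apical face towards the photoreceptors, while chloride leaves and is exchanged for bicarbonate across the basolateral face towards the choroid. Glucose is carried from the choroid to the photoreceptors, which return much of it as lactate, and lactate enters the RPE through an apical carrier and leaves through a basolateral one.

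Total counts ran from 43591245 to 64087660 in ADQ and from 47997064 to 50974422 in control, so counting error was small for 8 of the genes and Best1 was the exception at 182 to 348 counts a library. Levels are given in CPM, the unit that scales each library's counts to a common total. The labelled tissue was checked by 8 RPE markers, which summed to 22500 to 30670 CPM in ADQ and 25760 to 34040 CPM in control. Markers of tissue carried along in the dissection varied more: 10 rod photoreceptor genes summed to 529 to 3950 CPM in ADQ and 580 to 2167 CPM in control, and 7 surface epithelium genes to 0.743 to 2.13 CPM in ADQ and 2.29 to 2073 CPM in control. A set of 8 skeletal muscle genes summed to 433 to 2370 CPM in ADQ and 1371 to 3273 CPM in control. Adipocyte markers summed to 7.36 to 24.9 CPM in ADQ and 6.42 to 155 CPM in control, where control 5 held the lowest sum of all 10 libraries; all 6 of the 7 that were tested had a log2 fold change below 0 and 0 passed. Without control 5, 357 genes passed in place of 171 over all genes, and 0 of the 9 transport genes.

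Transport genes spanned a wide range of levels, compared here as CPM per kilobase of exon. Bsg stood highest at 2412 ± 340 per kilobase in ADQ and 2870 ± 345 in control (SD, n = 5 each), followed by Slc16a8 at 1056 ± 200 in ADQ and 1321 ± 176 in control, so the basolateral lactate carrier and its chaperone led the list. Kcnj13 came next at 439 ± 43.2 in ADQ and 500.1 ± 56.9 in control, and then Slc2a1 at 319 ± 36.2 in ADQ and 319 ± 7.19 in control. Atp1b1 averaged 110 per kilobase over the 10 libraries and Slc16a1 97.9, and these neighbours were the only pair in the order whose ranges overlapped, at 95.5 to 129 against 87.2 to 109.5. Slc4a2 averaged 39.4 and Clcn2 14.0 per kilobase. Best1, which encodes the chloride channel of the basolateral membrane that is altered in Best macular dystrophy in people, was the lowest at 1.81 per kilobase, 7.75-fold under Clcn2. Each gene lay above the next in the order in all 10 libraries, but the order depends on the divisor, the merged length of all annotated exons. In CPM without it, Slc2a1 (1118 in ADQ, 1117 in control) lay above Kcnj13 (558 in ADQ, 635 in control). Likewise, Slc16a1 (446 in ADQ, 421 in control) lay above Atp1b1 (337 in ADQ, 343 in control). Of the 1270 exon bases of Kcnj13, 623 also belong to another gene.

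**Figure D1:**
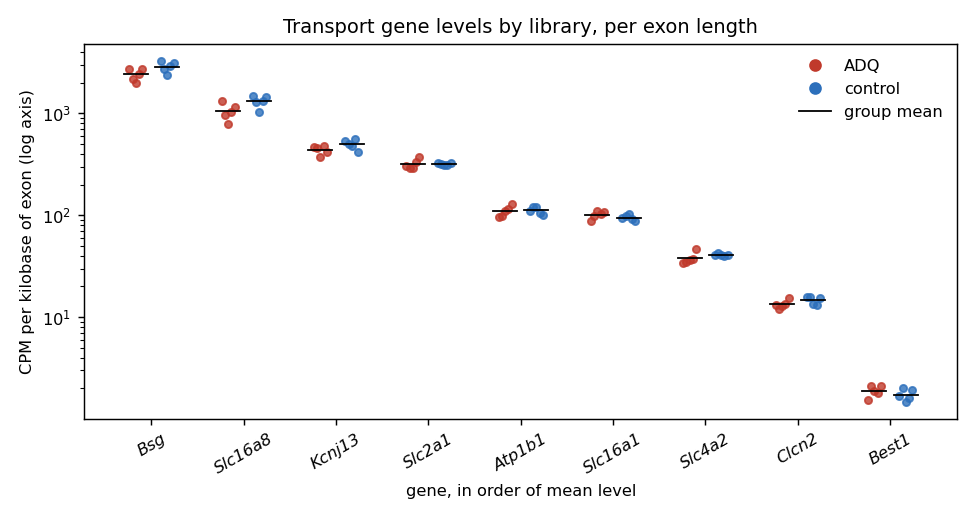
Level of each of the 9 transport genes in CPM per kilobase of exon (log axis), with 5 ADQ libraries left and 5 control libraries right in each gene and the group mean as a line. Bsg is highest at a mean of 2641 over all libraries and Best1 lowest at 1.81, and for each gene the ADQ and control points overlap.

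The promoters of these genes spanned from very few to very many CG dinucleotides. RefSeq promoters (GRCm38.p6) were given for 8 of the 9 members, and the 250 bases before the annotated start of 4 of them are shown on the gene's own strand because they contrast the basolateral and the apical lactate carrier, and the high and the low channel. Capitals mark CG dinucleotides.
Slc16a8 (chr15:79254749-79254998, minus strand): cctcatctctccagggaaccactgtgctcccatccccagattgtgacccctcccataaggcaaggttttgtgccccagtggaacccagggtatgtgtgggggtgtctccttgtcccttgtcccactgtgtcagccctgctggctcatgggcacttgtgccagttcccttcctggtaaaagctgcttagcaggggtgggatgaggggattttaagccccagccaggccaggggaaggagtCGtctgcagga
Kcnj13 (chr1:87394730-87394979, minus strand): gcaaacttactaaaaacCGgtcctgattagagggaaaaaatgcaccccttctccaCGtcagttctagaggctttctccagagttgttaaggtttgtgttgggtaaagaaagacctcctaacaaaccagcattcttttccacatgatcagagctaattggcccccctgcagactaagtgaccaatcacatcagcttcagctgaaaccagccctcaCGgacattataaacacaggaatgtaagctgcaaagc
Best1 (chr19:10001634-10001883, minus strand): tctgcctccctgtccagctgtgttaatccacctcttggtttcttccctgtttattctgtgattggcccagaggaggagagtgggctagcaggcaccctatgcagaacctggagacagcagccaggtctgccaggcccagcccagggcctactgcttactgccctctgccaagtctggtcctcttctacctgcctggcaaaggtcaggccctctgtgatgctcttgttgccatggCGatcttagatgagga
Slc16a1 (chr3:104638414-104638663, plus strand): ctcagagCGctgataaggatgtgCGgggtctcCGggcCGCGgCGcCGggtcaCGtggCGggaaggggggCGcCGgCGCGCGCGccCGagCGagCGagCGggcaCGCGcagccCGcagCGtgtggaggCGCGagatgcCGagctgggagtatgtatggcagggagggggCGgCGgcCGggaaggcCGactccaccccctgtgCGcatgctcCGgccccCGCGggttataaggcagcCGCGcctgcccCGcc
Slc16a8 and Best1 held 1 CG each and Kcnj13 held 3, against a median of 6 in the 32851 promoter windows of the same length; 18.8% of all windows held 1 or fewer and 37.8% held 3 or fewer. Slc16a1 held 37, and 98.1% of all windows held as few or fewer. Clcn2 with 11 and Slc2a1 with 13 lay nearer the middle, where 66.5% and 70.6% of windows held as few or fewer. Atp1b1 held 24 (89.3%), and the 2 windows of Slc4a2 held 28 and 16 (93.2% and 76.5%). These counts are a description of 9 windows and were not tested. Motifs were searched on both strands in all 9 windows of the members. The E-box CACGTG was found only before Slc16a1 (6.02% of all windows hold it), its variant CATGTG only before Kcnj13 (12.3%), and TAATCC, the core read by OTX proteins, only before Best1 (6.25%). The matches lie before different genes and so do not overlap, and a match is no evidence of binding.

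The main comparison asked whether these transport genes differed in ADQ from control. No member passed: 0 of 9 had an adjusted p under 0.05 with edgeR's quasi-likelihood test, where 171 of 20684 genes, or 0.827%, did (0.74% higher and 0.087% lower). At an unadjusted p under 0.05 it was 1 of 9, Slc16a8, which was lower, against a background of 13.8% (5.85% for lower alone). DESeq2 and voom with quality weights also called 0 of 9, where they called 3.26% and 3.21% of all genes with an adjusted p. The median log2 fold change of the 9 was -0.12, with 6 below 0, beside 0.01 over all genes tested, of which 48.2% were below 0. The 8 RPE markers had a like median of -0.13, also with 6 below 0 and 0 passing. In none of the 9 did the groups separate, where 3.16% of all genes did (1.07% with ADQ lower). In whole tissue, fewer cells of a type and less RNA per cell cannot be told apart.

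**Figure D2:**
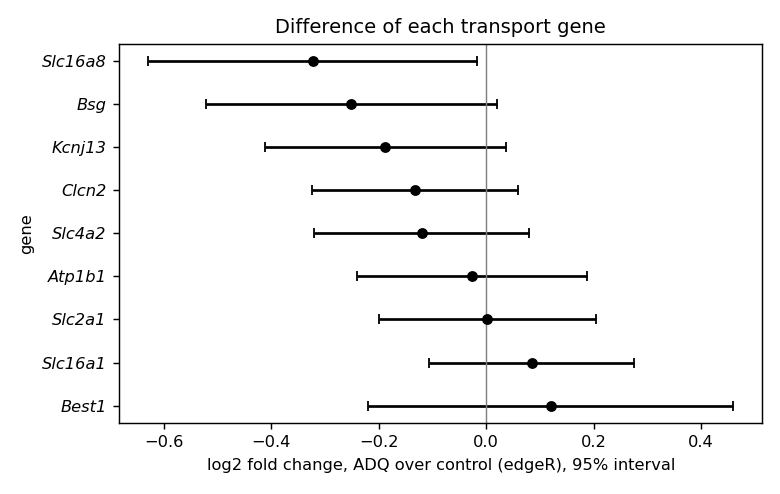
Log2 fold change of each transport gene, ADQ over control, from edgeR (point) with its 95% interval (bar), ordered from the lowest at the top. Slc16a8 is lowest at -0.32 and Best1 highest at 0.12, and every interval but that of Slc16a8 includes 0.

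Slc16a8 had the lowest log2 fold change of the 9 and Bsg the next. Slc16a8 (chromosome 15, 79251014 to 79254761) encodes the basolateral lactate carrier of the RPE. It was at 3019, 2218, 1797, 2365 and 2624 CPM in ADQ 1 to 5 and at 3383, 2960, 2368, 3018 and 3308 CPM in control 1 to 5. The groups overlapped: ADQ 1 lay within the control range, control 3 was the lowest control, and ADQ 2, 3 and 4 lay below every control. Its log2 fold change was -0.32 (SE 0.14, 95% interval -0.63 to -0.02), with an edgeR adjusted p of 0.337. In the authors' deposited table it is -0.37 with an adjusted p of 0.0644; that table lists 5.42% of its 15860 genes under 0.05 and 0 of these 9.

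Bsg (chromosome 10, 79704491 to 79711969) encodes basigin, the membrane glycoprotein that lactate carriers need to reach the cell surface. Its levels were 4970, 3935, 3577, 4448 and 4949 CPM in ADQ 1 to 5, against 5923, 4966, 4294, 5240 and 5608 CPM in control 1 to 5. The same library was lowest in each group as for Slc16a8, ADQ 3 and control 3. The log2 fold change of Bsg was -0.25 (SE 0.13, 95% interval -0.52 to 0.02) with an edgeR adjusted p of 0.394. In the authors' deposited table it is -0.27, with confidence limits of -0.48 and -0.055 and an adjusted p of 0.113.

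Slc16a1 (chromosome 3, 104638668 to 104658462), the lactate carrier of the apical face and of many other cells, had a small log2 fold change of opposite sign. It was at 386, 432, 485, 451 and 476 CPM in ADQ 1 to 5 and at 414, 438, 457, 408 and 387 CPM in control 1 to 5. The ADQ libraries held both the lowest and the highest value, and the log2 fold change was 0.08 (SE 0.09, 95% interval -0.11 to 0.28, edgeR adjusted p = 0.687). It was 0.13 without ADQ 1, 0.05 without ADQ 3, 0.06 without control 5 and 0.03 with the RPE marker level as a covariate.

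Slc2a1 (chromosome 4, 119108711 to 119137983), the glucose carrier of both faces of the RPE and of barrier endothelium, had nearly equal means. It was at 1075, 1024, 1009.5, 1168 and 1316 CPM in ADQ 1 to 5 and at 1149, 1117, 1089, 1096 and 1134 CPM in control 1 to 5. All 5 ADQ libraries lay outside the narrow control range, 3 below and 2 above, with ADQ 5 highest. The 2 above, ADQ 4 and ADQ 5, also had the highest rod marker sums of all libraries, 2741 and 3950 CPM. The log2 fold change was 0.00 (SE 0.09), and its 95% interval of -0.20 to 0.20 bounds the difference in this fit. Its sign changed with the scaling of libraries, and it was -0.09 with the rod marker level as a covariate. The part of rod RNA in the Slc2a1 values was not tested.

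Among ion transport genes, Kcnj13 had the lowest log2 fold change. Kcnj13 (chromosome 1, 87386363 to 87394729) encodes the apical potassium channel, and was at 597, 574, 477, 612 and 528 CPM in ADQ 1 to 5 and at 686, 641, 610, 712 and 527 CPM in control 1 to 5. Control 5 lay below 4 of the 5 ADQ libraries, whereas the other 4 controls lay above all ADQ libraries but for ADQ 4, which passed control 3. The log2 fold change was -0.19 (SE 0.10, 95% interval -0.41 to 0.04, edgeR adjusted p = 0.437). Of its 1270 exon bases, 623 also belong to Gigyf2 on the opposite strand, which averaged 44.0 CPM; whether counting used strand is not given in the sources used here, so reads of this stretch cannot be assigned.

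Chloride and bicarbonate genes followed with smaller values. Clcn2 (chromosome 16, 20702964 to 20717746), a chloride channel without which the mouse retina degenerates, was at 72.9 to 93.2 CPM in ADQ and 79.1 to 94.9 CPM in control (log2 fold change -0.13, SE 0.09, edgeR adjusted p = 0.514). Slc4a2 (chromosome 5, 24423837 to 24440950), the exchanger of chloride for bicarbonate, was at 283 to 385 CPM in ADQ and 330 to 356 CPM in control (log2 fold change -0.12, SE 0.09, edgeR adjusted p = 0.575), and shares 1141 of 8322 exon bases with Fastk on the opposite strand. ADQ 5 alone lay above the controls, and without it the log2 fold change of Slc4a2 was -0.20 (edgeR adjusted p = 0.278). Best1 (chromosome 19, 9985174 to 10001633) was at 3.94, 5.50, 4.90, 4.59 and 5.39 CPM in ADQ 1 to 5 and at 4.31, 5.19, 3.82, 4.12 and 4.95 CPM in control 1 to 5. Its log2 fold change of 0.12 had an SE of 0.16 and a 95% interval of -0.22 to 0.46, so it could not be told from 0. It was 0.19 without ADQ 1, 0.07 without ADQ 2 and 0.07 without control 3.

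Atp1b1 (chromosome 1, 164437109 to 164458355) encodes the beta subunit that brings the sodium pump to the membrane, and was at 294 to 398 CPM in ADQ and 308 to 373 CPM in control. Its log2 fold change was -0.03 (SE 0.10, 95% interval -0.24 to 0.19), and the sign changed when libraries were scaled by size alone. It shares 575 of 3081 exon bases with Nme7 on the opposite strand, which averaged 12.1 CPM.

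Ratios of 2 genes within a library do not depend on how libraries are scaled, and 6 were compared by an exact two-sided permutation test over all assignments of the libraries. The ratio of the basolateral to the apical lactate carrier, Slc16a8 over Slc16a1 counts, was 7.82, 5.14, 3.71, 5.24 and 5.51 in ADQ 1 to 5 and 8.17, 6.76, 5.19, 7.41 and 8.55 in control 1 to 5. ADQ 2 and 3 lay below every control and ADQ 4 and 5 above control 3 alone, while ADQ 1 lay among the higher controls. The difference was -0.42 on the log2 scale (2.41 ± 0.38 in ADQ and 2.83 ± 0.29 in control, SD, n = 5 each; exact permutation p = 0.103, adjusted over the 6 ratios p = 0.155).

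Glucose carrier per basigin gave the lowest p of the 6. Slc2a1 over Bsg was 0.216, 0.260, 0.282, 0.263 and 0.266 in ADQ 1 to 5 and 0.194, 0.225, 0.254, 0.209 and 0.202 in control 1 to 5. ADQ 2 to 5 lay above every control, the log2 difference was 0.25, and the exact permutation p of 0.0397 became 0.155 after adjustment. For Slc16a1 over Bsg the difference was 0.34 (exact permutation p = 0.0873), for Best1 over Clcn2 0.25 (exact permutation p = 0.0556), for Slc16a8 over Bsg -0.08 (exact permutation p = 0.167) and for Kcnj13 over Atp1b1 -0.15 (exact permutation p = 0.333). In all, 0 of 6 ratios passed with all libraries. ADQ 1 decided this count: without it 5 of 6 passed, each at an adjusted p of 0.0476, Kcnj13 over Atp1b1 being the exception at 0.167. The Slc16a8 to Slc16a1 difference was then -0.55 and the Slc2a1 to Bsg difference 0.31. Leaving out any other single library gave 0 of 6. Most of the ratios share Slc16a8, Slc16a1 or Bsg with another, so their number is not one of separate results.

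**Figure D3:**
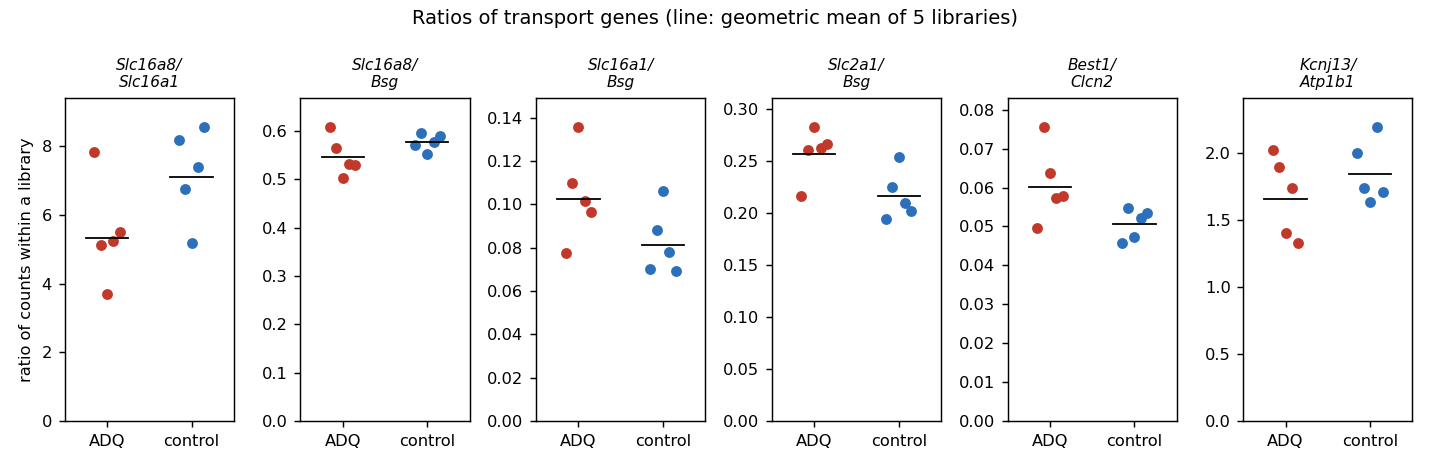
Ratios of counts of 2 transport genes within a library, with a linear axis from 0 for each ratio, 5 ADQ libraries left, 5 control libraries right and the geometric mean as a line. ADQ 1 is the highest ADQ point of Slc16a8 over Slc16a1 at 7.82, and 4 of 5 ADQ points of Slc2a1 over Bsg and of Best1 over Clcn2 lie above all controls.

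Setting each gene against the RPE content of its library asked whether the carriers differed beyond the amount of RPE RNA. Relative to the geometric mean of the 8 RPE markers, Slc16a8 stood at 1.74, 1.52, 1.34, 1.501 and 1.56 times that mean in ADQ 1 to 5 and at 1.85, 1.77, 1.60, 1.79 and 1.91 times that mean in control 1 to 5. ADQ 2 to 5 lay below every control. Its log2 difference was -0.22, and that of Bsg, also lower than every control in 4 of 5 ADQ libraries, was -0.14. Each had an exact permutation p of 0.0159, and 0.0714 adjusted over the 9 genes, so 0 of 9 passed. The other 7 differed by -0.07 (Kcnj13) to 0.23 (Best1), with exact permutation p from 0.159 to 0.905. With the RPE marker level as a covariate in edgeR, the log2 fold change of Slc16a8 was -0.13 and that of Bsg -0.10, each less than the -0.32 and -0.25 without it by over 1.5 times.

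The genes did not share a common pattern over libraries. Slc16a8 and Bsg followed the RPE markers closely, with a Pearson r of 0.962 for Slc16a8 (permutation p = 2e-05, the smallest that the resamples can give, adjusted p = 0.00018; Spearman rho 0.976) over 10 libraries. For Bsg the Pearson r was 0.970 (permutation p = 4e-05, adjusted p = 0.00018; Spearman rho 0.976). Without ADQ 2 and ADQ 3, the libraries farthest from the median marker level, r was 0.899 for Slc16a8 and 0.923 for Bsg. Within the groups r was 0.979 in ADQ and 0.984 in control for Slc16a8, and 0.994 in ADQ and 0.979 in control for Bsg (n = 5 each). Slc16a1 had the opposite sign, with a Pearson r of -0.669 (permutation p = 0.0324, adjusted p = 0.0729; Spearman rho -0.721). Neither Slc16a1 nor any of the other 6 passed after adjustment; Clcn2 had r of 0.686, Kcnj13 0.524 and Best1 -0.180 (permutation p = 0.0271, 0.122 and 0.619). These points share library scaling and composition.

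**Figure D4:**
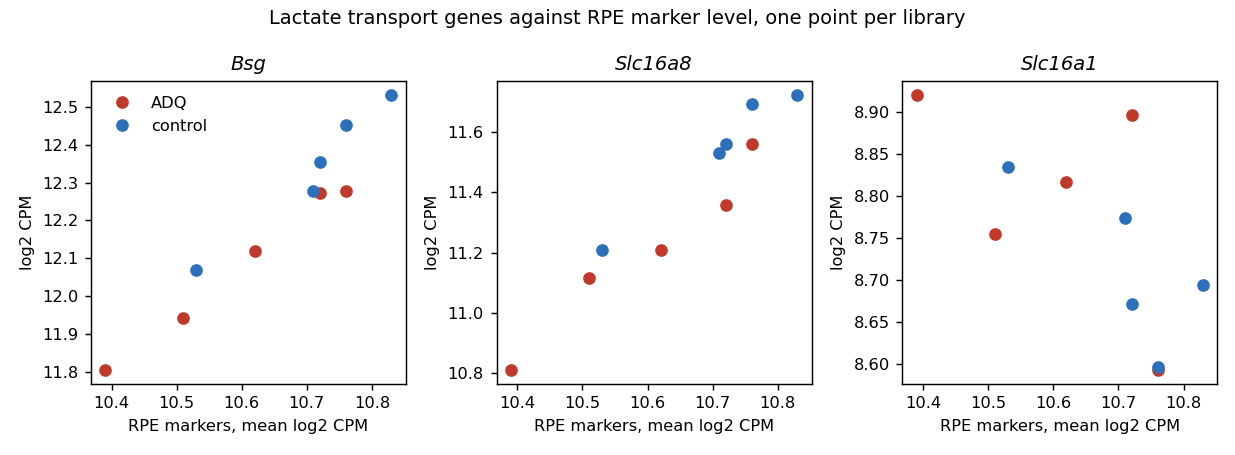
Log2 CPM of Bsg, Slc16a8 and Slc16a1 against the mean log2 CPM of 8 RPE markers, with each library as a point and ADQ and control in separate colours. Bsg and Slc16a8 go up with the markers in both groups (r 0.970 and 0.962), while Slc16a1 goes down (r -0.669).

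Deviations from the group mean, which take out the difference between groups, gave 36 pairs among the 9 genes. Slc16a8 and Bsg had the highest Pearson r at 0.96 over 10 libraries, and Slc16a8 and Slc16a1 the lowest at -0.74. The other pairs above 0.7 were of broadly used genes: Slc16a1 with Atp1b1 at 0.85, Slc2a1 with Slc4a2 at 0.85, Atp1b1 with Slc4a2 at 0.83, Slc2a1 with Clcn2 at 0.77 and Clcn2 with Slc4a2 at 0.73. Kcnj13 and Best1 stood outside both, with r of at most 0.35 for Kcnj13 and 0.45 for Best1 with any other member. These are descriptions over libraries that share depth, composition and scaling.

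**Figure D5:**
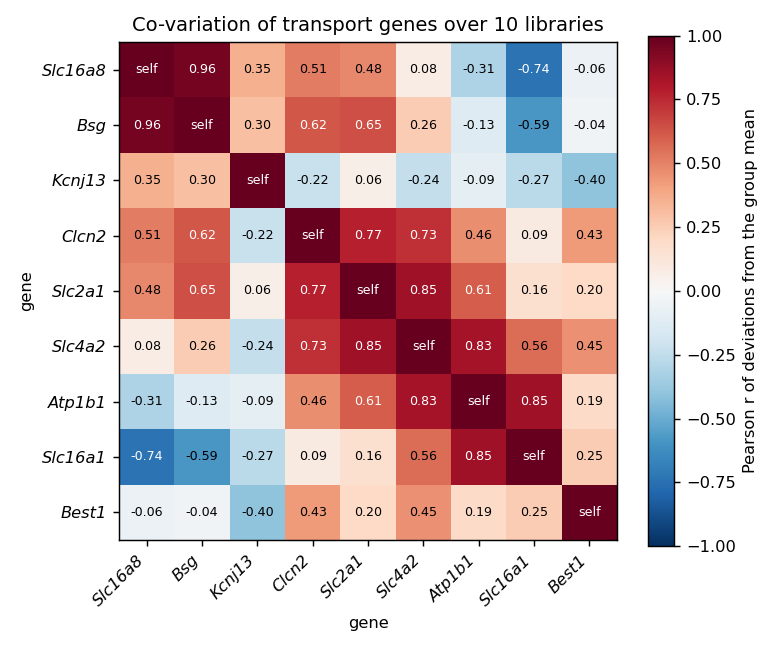
Pearson r of each pair of transport genes over 10 libraries, computed on deviations of log2 CPM from the group mean, from -1 in blue to 1 in red. Slc16a8 with Bsg is the highest pair at 0.96, and Slc16a1 with Slc16a8 the lowest at -0.74.

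A property of the libraries moved with the lactate genes. In each library, log2 CPM relative to the gene's mean was regressed on log2 exon length over 15911 genes, and the slope ran from -0.10 (ADQ 1) to 0.07 (ADQ 3) in ADQ and from -0.07 (control 5) to 0.12 (control 3) in control. Deviations of Slc16a8 from its group mean had r of -0.817 with this slope and -0.928 with the scaling factor of the library, those of Bsg -0.717 and -0.869, and those of Slc16a1 0.866 and 0.749. ADQ 1, the library that decided the ratios, had the lowest slope of all 10. With the slope as a covariate, the log2 fold change was -0.30 for Slc16a8, -0.23 for Bsg and 0.07 for Slc16a1, and 0 of 9 passed; its part in the ratios was not tested.

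Among the genes most like each member in those deviations, out of 9609 protein-coding genes averaging 10 CPM or more, Slc16a8 had Dgcr6 (r 0.996), Wbp1 (0.990) and Parl (0.990), and Bsg had Samm50 (0.994), Atp5g3 (0.984) and Cops6 (0.978). Slc16a1 was followed by Klhl8 (r 0.985), Copa (0.980) and Sgpl1 (0.979), and Atp1b1 by Trim37 (0.971) and Vat1l (0.969). For Slc2a1 they included Bicdl1 (r 0.962) and Rnpepl1 (0.951), for Slc4a2 Rhobtb2, Rrp1 and Arsg (0.930 to 0.964) and for Kcnj13 Krt23, Rita1 and Pno1 (0.940 to 0.950). Clcn2 (Amer2, Kcnab2 and Slco1a5, 0.912 to 0.916) and Best1 (Mocs1, Tifab and Fmnl1, 0.864 to 0.898) had the lowest r to their nearest genes. None of the genes named here as most like a member passed between the groups.

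Other ion transport genes were taken from a list of 39, of which 37 were tested and 0 rose or fell. At an unadjusted p under 0.05 there were 4 (1 lower and 3 higher), against 13.8% of all genes (5.85% for lower alone). The median log2 fold change was 0.07. Slc12a2, the carrier that loads chloride into epithelia, was at 121 ± 6.59 CPM in ADQ and 115 ± 9.46 CPM in control (SD, n = 5 each). The chloride channel gene Cftr had 4 to 14 counts a library in ADQ and 0 to 8 in control and was not tested; the count of 0 in control 2 allows up to 0.0592 CPM by counting error alone. The smallest p in this list belonged to Trpm3, a cation channel abundant in the RPE. Trpm3 was at 932, 852, 852, 917 and 871 CPM in ADQ 1 to 5 and at 1087, 1050, 980, 1052 and 1056 CPM in control 1 to 5. Its groups did not overlap, and its log2 fold change of -0.24 (SE 0.08) had an edgeR adjusted p of 0.207. Next was Slc4a7, a sodium bicarbonate carrier, at 7.69 ± 0.818 CPM in ADQ and 5.90 ± 1.08 CPM in control (log2 fold change 0.38, edgeR adjusted p = 0.298).

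Of 25 further genes of monocarboxylate and sugar transport, 21 were tested and 0 rose or fell. Those at an unadjusted p under 0.05 were 4 (3 lower and 1 higher), against 13.8% of all genes (5.85% for lower alone). The median log2 fold change was 0.07. Slc16a3, the lactate exporter of glycolytic cells, was at 19.1 ± 4.78 CPM in ADQ and 21.9 ± 3.73 CPM in control, and Emb, a chaperone of lactate carriers related to basigin, at 139 ± 24.7 CPM in ADQ and 121 ± 33.8 CPM in control. Per kilobase, Slc16a3 averaged 3.85 and Emb 18.8, far below Slc16a8 at 1189 and Bsg at 2641. Slc2a3, the glucose carrier of neurons and many leukocytes, had the smallest p. It was at 3.07, 3.07, 3.91, 2.99 and 3.88 CPM in ADQ 1 to 5 and at 2.06, 2.13, 2.91, 2.20 and 1.95 CPM in control 1 to 5, with no overlap (log2 fold change 0.59, SE 0.19, edgeR adjusted p = 0.183). Of 7 macrophage markers, 3 rose (Aif1, Adgre1 and Ptprc), where 0.74% of all genes did. The 7 markers summed to 1392 to 2169 CPM in ADQ and 1326 to 1714 CPM in control. Their part in the Slc2a3 values was not tested. Slc2a8, an intracellular sugar carrier, was at 46.2 ± 4.10 CPM in ADQ and 53.8 ± 2.86 CPM in control (log2 fold change -0.22, edgeR adjusted p = 0.264).

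Enzymes of glycolysis and lactate made a list of 20, all tested, in which 1 rose and 0 fell. Over all genes 0.74% rose and 0.087% fell. At an unadjusted p under 0.05 there were 9 of 20, of which 7 were lower and 2 higher, against 13.8% of all genes (5.85% for lower alone). The gene that rose was Pfkfb3, whose enzyme makes an activator of glycolysis. Pfkfb3 was at 21.4, 24.3, 31.5, 28.3 and 22.2 CPM in ADQ 1 to 5 and at 14.0, 14.5, 14.2, 15.03 and 13.5 CPM in control 1 to 5, so every ADQ library lay above every control (log2 fold change 0.84, SE 0.11, edgeR adjusted p = 0.00296). The macrophage markers that rose had log2 fold changes of 0.92 (Aif1), 0.83 (Ptprc) and 0.47 (Adgre1). The rest of that list did not pass, at 0.33 (C1qa), 0.29 (C1qb), 0.03 (Cd68) and 0.02 (Csf1r). The part of macrophage RNA in the Pfkfb3 values was not tested. Of the 20, 14 had a log2 fold change below 0, where 48.2% of all genes did, and the median was -0.18, beside 0.01 over all genes. Of 8 skeletal muscle markers, 7 were also below 0 (median -0.49) and 0 passed. Their part in the glycolysis values was not tested. Ldha and Ldhb, the subunits that interconvert lactate and pyruvate, were at 449 ± 50.9 and 770 ± 149 CPM in ADQ and at 530 ± 30.9 and 992 ± 133 CPM in control. Their log2 fold changes of -0.24 and -0.37 had edgeR adjusted p of 0.296 and 0.275.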

How the data were processed

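Messenger RNA of the RPE/choroid complex was sequenced in 5 ADQ and 5 control samples, grouped by sample title. Extraction used TRIzol and NucleoSpin columns, and SMARTer made the cDNA, per the labels' protocols. GRCm38, bcl2fastq, DRAGEN, edgeR and limma appear in the submitters' processing notes, without versions or roles. The deposited table holds raw counts per gene; 287 repeated rows were removed. The authors' deposited comparison table gives log2 CPM per library and log2 fold changes, p-values and adjusted p-values, and limma's moderated statistics as scores, which were not used.

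The test was edgeR's quasi-likelihood F test (version 4.0.16, with limma 3.58.1 in R 4.3.3) after filterByExpr (minimum count 10, minimum total 15) and TMM scaling, fitted robustly on group alone, with Benjamini-Hochberg adjustment over all 20684 genes at 0.05. CPM are TMM-scaled; log2 values add 0.5 counts. Standard errors were derived from the log2 fold change and its F statistic. Exon lengths and positions come from GENCODE M21 (GRCm38), which holds 99.4% of identifiers. Single values were compared by exact permutation, for which the smallest p is 0.00794, and correlations by 100000 resamples. Limits for a count of 0 (3 counts) cover counting error only. Intervals of log2 fold changes use the standard errors above, and so also cover variation between libraries.

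The members, lists and tests were chosen with earlier results of these data known. Named are the 9 members, list genes that passed or else the 2 with the smallest p, the direct partners Slc12a2, Cftr, Slc16a3, Emb, Ldha and Ldhb, and the 3 genes most like each member; a few genes that this rule names are not reported here. Alternatives were other scalings and count filters, DESeq2 1.42.0, voom with quality weights, a fit without robust estimation, leaving out each library, a replicate block, marker levels as covariates and, chosen after seeing the data, the length slope. The edgeR step was tested on simulated data. Its recovery there was 5.97% for differences of 1.25-fold, 53.7% for 1.5-fold and 92.4% for 2.0-fold. Most differences of 1.25-fold would thus be missed, and a member that did not pass may still differ. How much it may differ is given by its own 95% interval, such as -0.20 to 0.20 for Slc2a1 and -0.52 to 0.02 for Bsg. Only genes averaging 10 CPM or more were changed in the simulation, so its recovery does not speak for Best1.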

Additional observations from a re-analysis of the deposited data

Results flagged for a closer look

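In 30 groups of 5 libraries (9 genes and 6 ratios in each of ADQ and control), 1 library lay far from the rest of its group, where chance alone flags about 1 in 20 groups. Slc4a2 was at 385 CPM in ADQ 5, against 283 to 310 CPM in the other ADQ libraries.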

How the results depend on the processing

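Of the 9 transport genes, 0 passed under any alternative but the replicate block, under which 2 did. With the block, Slc16a8 (log2 fold change -0.33, adjusted p = 0.0266) and Bsg (-0.25, adjusted p = 0.0477) passed, and 694 genes did in all. Over all genes tested, same-numbered libraries did not deviate together (r -0.113 to 0.148 over the 5 numbers), and only ADQ 3 correlated best with its own number. For Slc16a8 and Bsg, however, the 5 numbers ranked in the same order in ADQ as in control. Each ADQ library also lay below its same-numbered control for both genes. The mean RPE marker level had that order too, from 10.76 log2 CPM in ADQ 1 to 10.39 in ADQ 3. In control it ran from 10.83 in control 1 to 10.53 in control 3. Slc16a8 and Bsg followed those markers, and such an order is what lets a gene pass with the block. It is thus no separate evidence that the numbers are pairs. The labels do not say whether the numbers are pairs, so the block is given as an alternative only. Sign flips of the same-numbered libraries cannot give a p below 0.0625 and so say nothing of the ratios or of the genes relative to the RPE markers. Over all genes the 171 calls became 768 with DESeq2 (with its own filtering), 664 with voom and 543 with the length slope, and 78 to 357 when a single library was left out, the extremes being without control 4 and without control 5; without ADQ 2, ADQ 3, ADQ 4 or control 1 they were 81, 99, 87 and 96. The ratios that passed ranged from 0 to 5 with a library left out, 5 being without ADQ 1. Slc2a1 changed sign with RLE scaling (-0.0054), upper quartile scaling (-0.0049), DESeq2 (-0.0063), the replicate block (-0.0046) and the rod marker covariate (-0.0896), and ranged from -0.0632 to 0.0370 with a library left out. Atp1b1 was 0.0577 when scaled by library size alone and -0.0930 to 0.0185 with a library left out. Scaling by library size alone moved the median of all genes to 0.10, and Best1 to 0.21, Slc16a1 to 0.17, Kcnj13 to -0.11, Clcn2 to -0.05 and Slc4a2 to -0.04. With the rod marker covariate Clcn2 was -0.22 and Slc4a2 -0.21. Relative to Rpe65 alone, Clcn2 (0.0164) and Slc4a2 (0.0209) changed sign, and with a library left out Clcn2 ranged from -0.0639 to 0.0204 and Slc4a2 from -0.0644 to 0.0574. The cause of these changes was not tested. The log2 fold change of Slc16a8 ranged from -0.42 to -0.13 and that of Bsg from -0.34 to -0.10 over 22 alternatives, with the lowest adjusted p under the block.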
